A study of Mus musculus with 4 samples.

Results

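The 38 cell cycle genes examined here are genes that a cell switches on to copy its DNA and divide. All 38 were found by symbol among the 32285 genes measured, each matched a single gene, and each had counts in all 4 libraries. They were listed by name, with earlier results of these data known. The genes fall into 5 roles: 12 genes for DNA replication and nucleotide supply, 7 for the cyclins, their kinase and protein destruction, 7 for mitotic kinases, the chromosomal passenger complex and the spindle checkpoint, 8 for the kinetochore, the spindle and chromosome structure, and 4 general markers of growing cells.

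The data are single-cell RNA counts of live CD45+ leukocytes (CD45 is the surface protein shared by white blood cells) sorted from KPC tumors. KPC is a mouse pancreatic cancer line, grown under the skin of male C57BL/6 mice. The 4 groups were untreated mice, mice given the STING agonist ADU-S100 as a single injection into the tumor, mice given repeated intraperitoneal doses of an agonistic antibody to the lymphotoxin-beta receptor (LTβR; LTbR in the labels), and mice given both (the combination). The single treatments are called ADU-S100 and anti-LTβR below (STING agonist and LTβR agonist in the plots), and values given 4 at a time stand in the order untreated, ADU-S100, anti-LTβR, combination. All groups bore the same tumor, and the tumors of a group were pooled before sorting, so each group is 1 library. With no replicate library there was no test of a treatment: all intervals below are 95% intervals for counting error alone, and differences between mice, pools or libraries cannot be told apart from treatment.

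A cell that enters division passes through DNA synthesis and then mitosis. Replication genes are switched on first, largely through E2F factors, and the mitotic genes follow through the DREAM complex and related factors that bind CCAAT boxes and the element called CHR. In tumors, T cells and natural killer (NK) cells divide after they are stimulated, tissue macrophages can renew themselves by local division, dendritic cells divide little, and mature neutrophils no longer divide. The neutrophils therefore served as the background class.

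The control regions of these genes show the shared elements. RefSeq promoter windows (build GRCm38.p6, 250 bases before to 50 after the start) were matched for 32 of the 38 genes, with 33 promoters. Mcm4, Ccna2, Aurkb, Spc24, Tpx2 and Stmn1 were not matched. The motifs searched on both strands were the CCAAT box (CCAAT), the CHR (TTTGAA or TTCGAA) and the E2F site (TTTGGCGC, TTTCGCGC, TTTCCCGC or TTTGCCGC), with overlapping matches counted.

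A CCAAT box lay in 84.8% of the members' promoters, against 37.4% of all 32851 promoters. A CHR lay in 54.5% against 19.2%, and both elements together in 51.5% against 7.52%. The E2F site lay in 18.2% against 2.26%. The elements were split by role: the CHR was in 16.7% of the 12 replication promoters but in 83.3% of the 6 cyclin and destruction promoters, 83.3% of the 6 kinase and checkpoint promoters and 66.7% of the 6 kinetochore and spindle promoters, while the E2F site was in 41.7% of the replication promoters, 16.7% of the cyclin promoters and 0 of the 12 promoters of the other mitotic genes. A match of letters is a description and does not show that a factor binds there.

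The 150 bases before the start are shown for promoters of each role except kinases and checkpoint, to let the elements be seen in place. Capitals mark the motif letters on either strand (ATTGG is a CCAAT box and TTCAAA a CHR read on the other strand). Top2a (topoisomerase that untangles chromosomes, chr11:99024190-99024339, minus strand) carried 4 CCAAT boxes and 3 CHR matches. Mki67 (the Ki-67 protein, chr7:135716380-135716529, minus strand) carried 1 CCAAT box and 2 CHR matches. Kif11 (a spindle motor, chr19:37376232-37376381, plus strand) carried 1 of each. Ccnb2 (a mitotic cyclin, chr9:70421555-70421704, minus strand) carried 3 CCAAT boxes. Mcm6 (a subunit of the replicative helicase, chr1:128359706-128359855, minus strand) carried 2 CCAAT boxes and 3 E2F matches, of which 2 overlap, and no CHR.
Top2a: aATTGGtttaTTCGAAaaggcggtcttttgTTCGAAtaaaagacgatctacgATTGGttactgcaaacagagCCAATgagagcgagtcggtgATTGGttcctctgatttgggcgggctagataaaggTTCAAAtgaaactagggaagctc
Mki67: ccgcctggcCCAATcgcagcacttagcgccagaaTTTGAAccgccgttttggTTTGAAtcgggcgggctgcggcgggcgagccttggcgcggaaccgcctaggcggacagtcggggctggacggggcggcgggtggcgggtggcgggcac
Kif11: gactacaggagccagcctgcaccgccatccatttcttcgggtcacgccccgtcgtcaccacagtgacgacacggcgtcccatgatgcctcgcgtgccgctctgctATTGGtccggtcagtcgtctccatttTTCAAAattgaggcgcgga
Ccnb2: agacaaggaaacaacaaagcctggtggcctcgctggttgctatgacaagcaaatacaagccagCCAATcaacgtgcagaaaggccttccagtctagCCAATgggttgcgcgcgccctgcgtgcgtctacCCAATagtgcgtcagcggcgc
Mcm6: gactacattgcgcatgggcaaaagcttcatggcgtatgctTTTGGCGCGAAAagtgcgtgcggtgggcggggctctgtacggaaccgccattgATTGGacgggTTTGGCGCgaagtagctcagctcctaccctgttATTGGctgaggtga

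Between 3955 and 7824 barcodes were deposited per library, and 23011 of 24839 passed the study's limits of 300 to 5000 detected genes and at most 6% mitochondrial counts. The median cell held 5750 to 7094 unique molecular identifiers (UMIs, 1 per captured RNA molecule). Of the barcode sequences, 2.01% to 2.63% also occurred in another library. Cells were clustered without the cell cycle genes, so that division did not form the clusters, and were called by marker genes T-like, NK-like, B- and plasma-like, macrophage- or monocyte-like, dendritic-like, plasmacytoid dendritic-like and neutrophil-like. Clusters with mixed markers stayed unnamed and held 13.1% of the cells of the untreated library, 12.2% of the ADU-S100 library, 13.1% of the anti-LTβR library and 12% of the combination library. Summed markers of epithelial or tumor cells reached at most 38.2 CPM in any class (CPM, UMIs of a gene scaled to the total UMIs of the class).

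Deeper cells show more genes, so a cell was called dividing only after it was thinned at random to 1000 UMIs. The call needed UMIs of at least 3 different members among 34, leaving out Stmn1, Hmgb2, Tubb5 and Pcna, which many resting cells also express. By this call 1.14% of the untreated cells (75 of 6604), 1.23% of ADU-S100 cells (45 of 3656), 2.18% of anti-LTβR cells (150 of 6873) and 2.39% of the combination cells (123 of 5157) were dividing. The intervals were 0.894% to 1.42%, 0.899% to 1.64%, 1.85% to 2.56% and 1.99% to 2.84%, so the shares of both libraries with anti-LTβR lay above the intervals of both libraries without it. Members' UMIs over all kept cells followed the same split, at 792.0, 857.1, 1025.7 and 1166.7 CPM. These pooled values mix classes whose sizes differed between libraries. The totals above include 1470, 1057, 1571 and 1646 T-like cells. Within that class the combination share lay below the anti-LTβR share (4.37% against 5.41%), the reverse of the pooled order. The part of class makeup in the pooled values was not tested.

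After thinning, T cells made up most of the dividing leukocytes. Of all cells called dividing, T-like cells were 62.7% in the untreated, 71.1% in ADU-S100, 56.7% in anti-LTβR and 58.5% in the combination library. Averaged over the 4 libraries with equal weight, 4.00% of T-like cells were dividing, against 1.75% of dendritic-like, 1.64% of NK-like, 1.26% of B- and plasma-like, 0.498% of macrophage- or monocyte-like and 0.279% of neutrophil-like cells. The T-like share was 8.04 times the macrophage share, 2.44 times the NK share and 2.29 times the dendritic share. On the log2 scale the class difference to T-like was -3.01 for macrophages (interval -4.32 to -1.76), which leaves 0 outside, and -1.29 for NK-like (-2.98 to 0.18) and -1.19 for dendritic-like cells (-3.02 to 0.37), which do not. NK-like, B- and plasma-like and dendritic-like cells lay close together in this order and their shares were not separable at this depth.

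The order of the classes depended on thinning. With all UMIs of a cell, 22.8% of dendritic-like and 22.4% of T-like cells met the call, and 9.0% of macrophages. These were 306, 251, 351 and 414 T-like cells and 218, 143, 241 and 181 macrophages. T-like cells were then no longer most of the cells that met the call in any library. Dendritic-like cells held a median of 10459 to 12526 UMIs per library, macrophages 7861 to 10690.5 and T-like cells 4275 to 5180.

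Neutrophil-like cells gave the background. None of 211 untreated, 293 ADU-S100 and 59 combination neutrophils was called dividing, which allows shares of up to 1.42%, 1.02% and 5.08%. In the anti-LTβR library 4 of 358 were (1.12%, interval 0.305% to 2.84%). The median neutrophil held 1967.5 to 2378 UMIs per library. The background was thus itself highest in the anti-LTβR library. Members' UMIs in neutrophils were also highest there, at 608.8, 520.3, 977.1 and 522.5 CPM, and the 4 cells called dividing supplied 26.4% of the UMIs in that library. Those cells held UMIs of at most 4 members, and 11.6% of all cells in the neutrophil cluster carried markers of more than 1 class. Over 20 random thinnings the anti-LTβR neutrophil share averaged 0.642% and exceeded untreated in 20 of 20. Such draws reuse the same cells and show the noise of thinning alone. The part of this background in the results of the other classes was not tested. The T-like intervals lay above the neutrophil limit or interval in the untreated, ADU-S100 and anti-LTβR libraries, while those of NK-like and dendritic-like cells with anti-LTβR overlapped that of the neutrophils. The untreated NK-like and dendritic-like shares and the ADU-S100 dendritic-like share lay under the neutrophil limits of their own libraries and were not separable from background at this depth. The same holds for the macrophage share as a whole. The untreated cells that met the call nevertheless held UMIs of up to 9 members in NK-like, 10 in dendritic-like and 8 in macrophage cells, against at most 1 in any untreated neutrophil. In the combination library too few neutrophils were present to set a background. Plasmacytoid dendritic-like cells had 0 dividing cells in all 4 libraries, of 33 to 118 cells each, which allows shares of 2.54% to 9.09%.

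**Figure D1:**
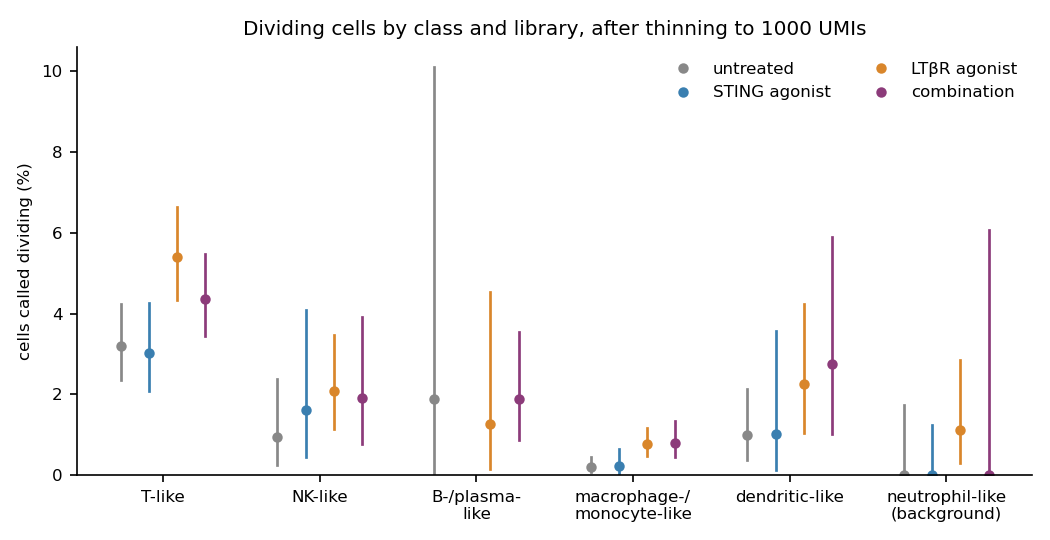
Percent of cells called dividing (y axis) in each class (x axis) and library (color) after thinning to 1000 UMIs, with points for the share and lines for the exact binomial 95% interval; the 14 B- and plasma-like cells of the ADU-S100 library, with 0 dividing, are left out. T-like cells sit highest, at 3.03% to 5.41%, and macrophages sit lowest of the plotted classes other than neutrophils, at 0.210% to 0.800%.

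In T-like cells the anti-LTβR library had the largest dividing share. The share was 3.20% in the untreated library (47 of 1470, interval 2.36% to 4.23%), 3.03% with ADU-S100 (32 of 1057, 2.08% to 4.25%), 5.41% with anti-LTβR (85 of 1571, 4.34% to 6.65%) and 4.37% with the combination (72 of 1646, 3.44% to 5.48%). The ratio to untreated was 1.69 for anti-LTβR (interval 1.03 to 2.82), 1.37 for the combination (0.813 to 2.32) and 0.947 for ADU-S100 (0.492 to 1.80). Only the first leaves 1 outside in this draw. Over 20 random thinnings of the same cells the means were 3.59%, 3.18%, 5.48% and 4.79%. Anti-LTβR and the combination were above untreated in 20 of 20 draws each. The untreated share above lay under the range of those draws, 3.27% to 3.95%, and the ratio of means for anti-LTβR was 1.53. Without thinning the T-like shares were 20.3%, 23.4%, 21.6% and 24.5%, and the anti-LTβR ratio was 1.06 (0.874 to 1.29).

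The T-like subsets ordered the libraries differently, a difference between subsets that was not tested. CD8 T-like cells, the cytotoxic subset, were taken as cells with a Cd8a or Cd8b1 UMI and none of Cd4. They were dividing at 4.35% in the untreated library (38 of 873), 4.95% with ADU-S100 (26 of 525), 9.40% with anti-LTβR (63 of 670) and 5.56% with the combination (50 of 900). The anti-LTβR share was 2.16 times untreated (1.23 to 3.83), and the combination share was 0.591 times the anti-LTβR share (0.350 to 0.994). In none of 20 thinnings of the same cells was the combination above anti-LTβR in CD8 cells. The untreated share above lay under the range of these draws, 4.47% to 5.84%. The ratios of their means were 1.83 for anti-LTβR to untreated and 0.645 for the combination to anti-LTβR. Without thinning the CD8 shares were 27.6%, 34.7%, 34.6% and 34.5%, so the anti-LTβR library no longer stood apart. Members' summed CPM in CD8 cells were highest with anti-LTβR, at 1916.3, 1965.8, 2683.6 and 2096.2.

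Conventional CD4 cells (a Cd4 UMI with no Foxp3, Cd8a or Cd8b1) had the opposite order of the 2 libraries with anti-LTβR. None of 199 untreated cells was dividing, which allows a share of up to 1.51%. The share was 0.463% with ADU-S100 (1 of 216), 2.28% with anti-LTβR (8 of 351) and 3.83% with the combination (11 of 287, 1.93% to 6.75%). With untreated set at its limit of 3 cells, the combination share was 2.54 times as high. The lower bound of the combination share over the exact untreated upper bound of 1.84% gave a ratio of 1.05. Members' CPM in this subset were 741.9, 1165.9, 1622.8 and 2389.0, so the combination held the highest level here and untreated the lowest. Whether the combination exceeded anti-LTβR in dividing share was not resolved, with a ratio of 1.68 (0.434 to 6.83). The combination share was above in 20 of 20 thinnings of the same cells, which leave this counting error unchanged.

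Regulatory T cells, which hold back immune responses and carry Foxp3, had another order, which changed with the random draw. Their dividing shares were 6.42% (7 of 109), 1.39% (1 of 72), 3.10% (7 of 226) and 4.20% (5 of 119), with intervals that all overlapped. Over 20 thinnings the means were 4.50%, 3.89%, 3.01% and 5.84%, so the combination, below untreated in the draw above, was above it in 19 of 20. The anti-LTβR library lay below untreated in 20 of 20 thinnings, and the ADU-S100 library above it in 6 of 20. Members' CPM in this subset were 1449.3, 1561.7, 1614.2 and 2283.2, highest in the combination. T-like cells with neither or both of the CD4 and CD8 UMIs were dividing at 0.692%, 1.64%, 2.16% and 1.76%.

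**Figure D2:**
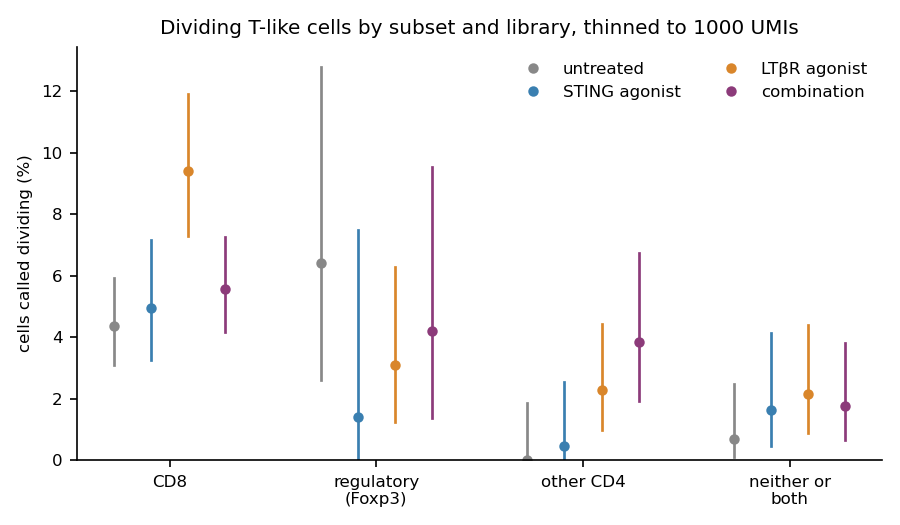
Percent of T-like cells called dividing (y axis) by subset (x axis) and library (color), thinned to 1000 UMIs, with points for the share and lines for the exact binomial 95% interval. CD8 cells peak in the anti-LTβR library at 9.40%, and other CD4 cells increase from 0 in untreated to 3.83% in the combination.

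Among T-like clusters, division was concentrated in a few. Cluster 0, led by Cd8a, Lag3 and Gzmf, held 143 dividing cells of 2229 (6.42%), with 4.86%, 4.21%, 10.6% and 5.96%. Cluster 16, led by Gzmk and Cd8b1, had 2.07% (3 of 145), 2.17% (3 of 138), 7.09% (10 of 141) and 3.28% (6 of 183), with overlapping intervals. Both CD8 clusters were highest in the anti-LTβR library. Cluster 5, led by Cd4 and Cd40lg (the helper signal to B cells), had 0 of 229, 1 of 281, 4 of 418 and 14 of 314 dividing cells, so the combination stood at 4.46% (2.46% to 7.37%) against 0.957% (0.261% to 2.43%) with anti-LTβR. Cluster 20, led by Myo10, Dlg2 and Tmem163, had 5 of 179 dividing cells in untreated (2.79%, 0.913% to 6.40%). With ADU-S100 it had 8 of 75 (10.7%, 4.72% to 19.9%) and with anti-LTβR 7 of 63 (11.1%, 4.59% to 21.6%). With the combination it had 6 of 71 (8.45%, 3.16% to 17.5%), and all of these intervals overlapped. Cluster 11, led by Foxp3 and other regulatory genes, had 2.80% to 4.40%. The cluster led by Il17a and Cd163l1 had 1 dividing cell of 379, and the cluster led by Lef1 and Tcf7, genes of resting T cells, had 0 of 153, which allows up to 1.96%.

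Summed over all 38 members, T-like cells held 1638.2 CPM in the untreated library (interval 1611.6 to 1665.1), 1660.1 with ADU-S100, 2229.6 with anti-LTβR (2198.0 to 2261.5) and 2019.4 with the combination (1992.3 to 2046.7). The log2 ratio to untreated was 0.44 for anti-LTβR (0.40 to 0.49), 0.30 for the combination (0.26 to 0.34) and 0.02 for ADU-S100 (-0.03 to 0.07). The combination was below anti-LTβR by a log2 ratio of -0.14 (-0.18 to -0.10). Cells called dividing supplied 42.4% to 57.3% of these UMIs, and the 10 top cells of a library supplied 15.3% to 28.9%, so these Poisson intervals, which treat UMIs as independent, are too narrow.

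For single genes a log2 ratio was taken of CPM plus 10, a scale that understates changes of low genes, and a gene counted as past the limit at 0.5 or -0.5. Of the members, 32 had a mean of at least 10 CPM in T-like cells, the level needed to be compared. With anti-LTβR 4 of these 32 were past the limit upward, where 1.59% of all 8243 genes were, and 0 were past it downward, where 1.88% were. A further 27 lay above 0 without passing, which makes 31 of 32 above 0 against 51.8% of all genes, with a median of 0.34 against 0.01. With the combination 0 members were past the limit in either direction (all genes 0.825% upward, 1.77% downward), 26 of 32 lay above 0 and the median was 0.21 against -0.03. With ADU-S100 0 were past it (all genes 1.66% upward, 1.38% downward), 11 of 32 lay above 0 and the median was -0.05 against 0.02. The anti-LTβR library was the highest of the 4 for 27 of 32 members. Both libraries with anti-LTβR lay above both without it for 24 of 32, against 13.5% of all genes.

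The sum of the replication genes was 469.5, 493.9, 674.0 and 561.8 CPM, a log2 ratio of 0.52 (0.44 to 0.60) for anti-LTβR and 0.26 (0.18 to 0.34) for the combination. Pclaf, a partner of the sliding clamp PCNA, was at 38.2 CPM in untreated (338 UMIs), 27.2 with ADU-S100 (179 UMIs), 81.8 with anti-LTβR (699 UMIs) and 46.0 with the combination (485 UMIs). The anti-LTβR library stood alone, with a log2 ratio of 0.93 (0.71 to 1.15), against 0.21 (-0.02 to 0.44) for the combination and -0.37 (-0.65 to -0.09) for ADU-S100.

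The helicase subunits, which unwind DNA at the fork, differed less. Mcm3 was at 37.6, 49.4, 58.2 and 52.9 CPM, with all treated libraries above untreated and log2 ratios of 0.32, 0.52 (0.28 to 0.75) and 0.40. Mcm6 was at 82.4, 99.4, 101.7 and 93.8 CPM. Mcm4 was at 50.9, 56.8, 69.4 and 63.7 CPM. Untreated was the lowest library for Mcm3, Mcm4 and Mcm6. The log2 ratio of anti-LTβR over the 6 helicase subunits Mcm2 to Mcm7 lay between 0.27 and 0.52.

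Pcna itself was at 82.6, 83.0, 113.0 and 93.3 CPM, highest with anti-LTβR. The enzymes of nucleotide supply were less even. Rrm1, the large subunit of ribonucleotide reductase, was at 37.5, 35.0, 51.5 and 41.6 CPM. Tk1, thymidine kinase, was at 19.0, 15.3, 25.3 and 16.5 CPM, so that the combination lay below untreated for this gene (log2 ratio -0.13). Rrm2 and Tyms had log2 ratios of 0.35 and 0.28 with anti-LTβR.

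Of the cyclin and destruction genes, 5 of 7 could be compared in T-like cells, and Ccnb1 and Cdc20 were under the minimum level. Their sum was 93.6, 88.0, 116.2 and 116.1 CPM, with the combination level with anti-LTβR (log2 ratio of the 2 libraries -0.00, -0.17 to 0.17). Ube2c, which marks mitotic proteins for destruction, was at 25.9, 27.4, 37.0 and 38.9 CPM and had the highest log2 ratio of the members in the combination at 0.45 (0.20 to 0.70). Cdk1, the mitotic kinase, was at 13.1, 11.1, 17.7 and 16.8 CPM. Ccna2, cyclin A, was at 13.8, 14.0, 20.8 and 17.1 CPM. Ccnb2 went against the others, at 16.3 CPM in untreated and 10.6, 12.9 and 15.4 in the treated libraries, and was the single compared member below 0 with anti-LTβR (-0.20).

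The kinase and checkpoint genes were near the minimum level, with 3 of 7 compared and Aurka, Aurkb, Bub1 and Plk1 under it. The sum was 70.7, 60.6, 94.2 and 80.3 CPM. Birc5, a subunit of the passenger complex, was at 24.6, 18.4, 33.4 and 26.3 CPM. Cdca8, of the same complex, was at 16.8, 14.7, 22.0 and 22.3 CPM. Both were lowest with ADU-S100. Bub1b, a checkpoint kinase, was at 10.9, 8.81, 11.2 and 10.8 CPM and hardly differed between libraries.

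All 8 kinetochore and spindle genes were compared. Their sum was 214.8, 193.0, 282.8 and 244.7 CPM, and the ADU-S100 library was below untreated by a log2 ratio of -0.15 (-0.30 to -0.01). Top2a was at 88.5 CPM in untreated (783 UMIs), 79.0 with ADU-S100 (520), 126.9 with anti-LTβR (1084) and 102.4 with the combination (1081), with log2 ratios of -0.15 (-0.35 to 0.06), 0.47 (0.30 to 0.65) and 0.19 (0.02 to 0.36). Kif11 was at 23.2, 18.5, 30 and 27.7 CPM. Cenpf, a protein of the outer kinetochore, was at 24.9, 21.6, 27.5 and 22.9 CPM, a small spread. Of the 8, 0 were above untreated with ADU-S100 and 8 with anti-LTβR.

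Among the general markers, Mki67 was at 88.5, 81.8, 122.0 and 109.3 CPM, with log2 ratios of -0.10 (-0.30 to 0.10), 0.42 (0.25 to 0.60) and 0.28 (0.11 to 0.45). Stmn1, a regulator of microtubules, was at 87.3, 73.7, 133.7 and 112.7 CPM, and anti-LTβR was past the limit at 0.56 (0.39 to 0.73). Hmgb2, a chromatin protein, was at 376.8, 371.4, 556.5 and 501.1 CPM, past the limit with anti-LTβR at 0.55 (0.46 to 0.64). These 3 genes were highest with anti-LTβR and lowest with ADU-S100. Tubb5, a tubulin chain that resting cells use too, had another order, at 237.0, 297.7, 250 and 293.2 CPM, with both libraries that received ADU-S100 above both that did not.

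**Figure D3:**
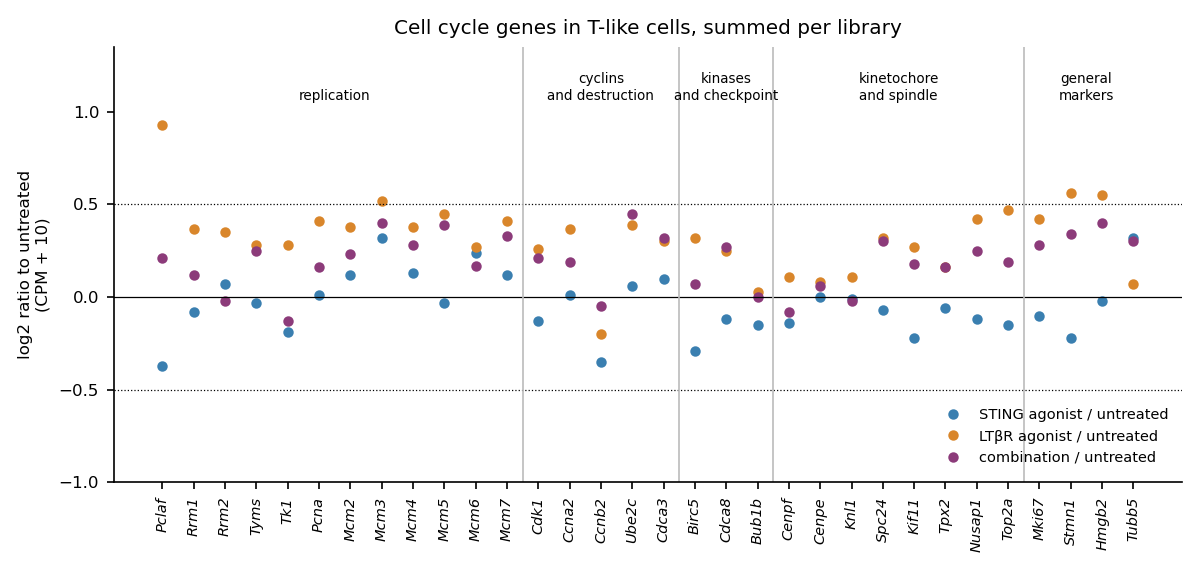
Log2 ratio to untreated of CPM plus 10 (y axis) for the 32 members compared in T-like cells (x axis, grouped by role), with points colored by treatment and dotted lines at 0.5 and -0.5; each point is 1 library. The anti-LTβR points lie above 0 for 31 of 32 genes, led by Pclaf at 0.93, while those of ADU-S100 lie on both sides.

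The balance of replication against mitotic UMIs in T-like cells was near even in every library. Replication genes other than Pcna supplied 50.5%, 54.6%, 53.2% and 51.5% of the replication and mitotic UMIs. In the same order, 16 of 47, 12 of 32, 33 of 85 and 22 of 72 dividing T-like cells held more replication than mitotic UMIs.

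In NK-like cells, innate killer lymphocytes, the dividing cells were few and their shares were not separable. The shares were 0.941% in untreated (4 of 425), 1.61% with ADU-S100 (4 of 248), 2.08% with anti-LTβR (14 of 673) and 1.92% with the combination (7 of 364). The ratio of anti-LTβR to untreated was 2.21 with an interval of 0.477 to 13.5. Members' sums were 1052.5, 1106.4, 1482.4 and 1264.6 CPM, a log2 ratio of 0.49 (0.40 to 0.59) for anti-LTβR. The mitotic roles stood out in that library: the cyclin and destruction genes were at 26.1, 11.4, 70.3 and 29.6 CPM, with log2 ratios to untreated of 1.43 (0.87 to 2.01) for anti-LTβR and -1.19 (-2.34 to -0.12) for ADU-S100. In the anti-LTβR library 10 cells held 88.9% of those cyclin UMIs.

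Of the 17 members compared in NK-like cells, 4 were past the limit upward with anti-LTβR (all genes 0.882%), 2 with the combination (1.64%) and 1 with ADU-S100 (4.92%). None was past it downward, where the shares of all genes were 1.25%, 2.89% and 2.35%. Cenpf reaches the minimum level only through the anti-LTβR library, so its place among the 4 follows in part from the filter, and 3 of 16 are past it among the members that reach the minimum without that library. Mki67 was at 28.7, 25.6, 68.3 and 48.2 CPM, with log2 ratios of 1.02 (0.58 to 1.45) for anti-LTβR and 0.59 (0.07 to 1.10) for the combination. Cenpf was at 7.51, 2.69, 23.9 and 8.03 CPM, high only in the anti-LTβR library (0.96) and low in the ADU-S100 library (-0.46). Pclaf was at 11, 10.8, 23.6 and 19.6 CPM. These genes were higher in the anti-LTβR library than in the other 3.

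Hmgb2 followed them at 343.2, 326.2, 500.8 and 392.1 CPM. Stmn1 was at 45.9, 47.1, 66.5 and 74.8 CPM, highest in the combination. Top2a was at 34.5, 21.5, 51.5 and 42.2 CPM and had the lowest log2 ratio with ADU-S100 (-0.50, -1.10 to 0.12). Of the helicase subunits, Mcm6 was also highest with anti-LTβR and Mcm3 and Mcm7 were not, with Mcm3 at 30, 23.5, 28.4 and 39.7, Mcm6 at 77.7, 80.0, 88.3 and 76.8 and Mcm7 at 23.9, 32.3, 21.0 and 31.1 CPM. Rrm1 was at 23, 36.3, 32.3 and 36.1 and Mcm4 at 47.3, 65.2, 53.0 and 49.7 CPM. Tk1 was nearly flat at 9.28, 11.4, 11.4 and 9.54 CPM, and Tubb5 was highest with ADU-S100 at 236.1 CPM against 157.7 in untreated. Replication UMIs were 54.8% of the replication and mitotic UMIs with anti-LTβR and 70.1% to 80.5% in the other libraries.

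B- and plasma-like cells were too few in the untreated and ADU-S100 libraries to compare, with 53 and 14 cells against 158 and 485 in the anti-LTβR and combination libraries. Dividing cells were 1 of 53, 0 of 14, 2 of 157 and 9 of 479, that is 1.89%, 0, 1.27% and 1.88%, and 0 of 14 allows up to 21.4%. The members' sum was 904.5 CPM with anti-LTβR and 1207.2 with the combination, a log2 ratio of 0.42 (0.27 to 0.56). The roles diverged. The cyclin and destruction genes were at 37.3 and 117.2 CPM (log2 ratio 1.65, 1.03 to 2.32), and the kinetochore and spindle genes at 71.4 and 158.0 (1.15, 0.67 to 1.64), but the replication genes were at 314.6 and 256.3 (-0.30, -0.56 to -0.03).

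Of 18 members compared between these libraries, 4 were past the limit upward in the combination (all genes 5.21%) and 1 downward (3.93%). These counts are given as a description, since Ube2c and Cenpf reach the minimum level only through the combination and Pclaf only through anti-LTβR, the libraries where they are higher, and Nusap1 only through 2 UMIs in the ADU-S100 library. Ube2c was at 4.14 CPM with anti-LTβR (4 UMIs) and 55.0 with the combination (163 UMIs), a log2 ratio of 2.20. Cenpf was at 4.14 and 35.1 CPM (1.67), and Stmn1 at 13.5 and 39.5 CPM (1.08). Nusap1, a spindle protein, was at 3.10 and 8.78 CPM (0.52). Pclaf was lower, at 27.9 and 15.9 CPM (-0.55), and so, short of the limit, was Mcm3 at 34.2 and 21.9 (-0.47). Replication UMIs were accordingly 65% of the replication and mitotic UMIs with anti-LTβR and 37.1% with the combination. In the combination, 10 cells supplied 95.7% of the cyclin UMIs, so these values describe a handful of cells.

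**Figure D4:**
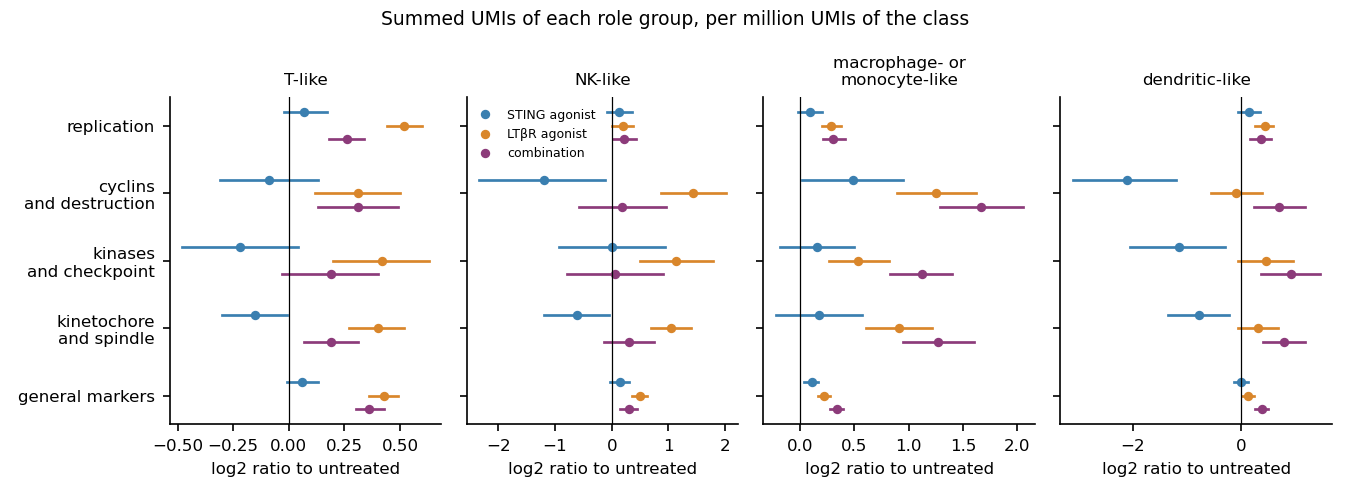
Log2 ratio to untreated of the summed CPM (x axis, with a different range in each panel) of each role (y axis) in 4 classes (panels), with points for the ratio, lines for its 95% counting interval and color for the treatment. Anti-LTβR stands highest for the mitotic roles of NK-like cells (1.43 for the cyclins), and the combination stands highest for those of macrophages (1.67) and dendritic-like cells (0.71).

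Macrophages and monocytes were the largest class, and few of their cells were called dividing. The dividing share was 0.210% in untreated (6 of 2858), 0.219% with ADU-S100 (3 of 1370), 0.763% with anti-LTβR (21 of 2753) and 0.800% with the combination (14 of 1751). The ratio to untreated was 3.63 for anti-LTβR (1.04 to 15.1) and 3.81 for the combination (0.959 to 17.4). These shares lie under the 1.12% of neutrophils in the anti-LTβR library, so the share of the class as a whole was not separable from background. The makeup of the class differed as well: its largest cluster was cluster 1, led by C1qb and C1qa, in the untreated and ADU-S100 libraries (1008 of 2929 and 486 of 1406 cells), cluster 2, led by Inhba and Nos2, with anti-LTβR (661 of 2859) and cluster 10 with the combination (390 of 1817).

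Within the class, nearly all dividing cells lay in 2 clusters. Cluster 10, led by Retnla, Mrc1 and Pf4, genes of tissue-resident macrophages, had 25 dividing cells of 767 (3.26%, 2.12% to 4.77%). Cluster 23, led by Ccl8, Pf4 and Apoe and shallow at a median of 1579 UMIs, had 13 of 204 (6.37%, 3.44% to 10.7%). Cluster 1 had 2 of 2152 cells thinned, and clusters 3, 4, 17 and 22 had 0. The neutrophil background was not separable from cluster 10 in single libraries: with anti-LTβR the intervals overlapped (2.11% to 7.36% against 0.305% to 2.84%), and with the combination 2.80% lay under the neutrophil limit of 5.08%.

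Inside cluster 10 the share was 2.20% (2 of 91), 3.57% (2 of 56), 4.18% (11 of 263) and 2.80% (10 of 357), with overlapping intervals. Inside cluster 23 it was 5.41%, 3.85%, 8.97% and 4.76%. Both clusters also differed in size. Cluster 10 was 4.06% of the class in untreated, 4.41% with ADU-S100, 11.1% with anti-LTβR and 21.5% with the combination, and cluster 23 was 2.08%, 3.63%, 3.50% and 4.62%. The part of these sizes in the share of the class was not tested. Without clusters 10 and 23, which were chosen because they hold most of the dividing cells, the shares were 0.0733%, 0, 0.124% and 0.0751% (2, 0, 3 and 1 cells).

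**Figure D5:**
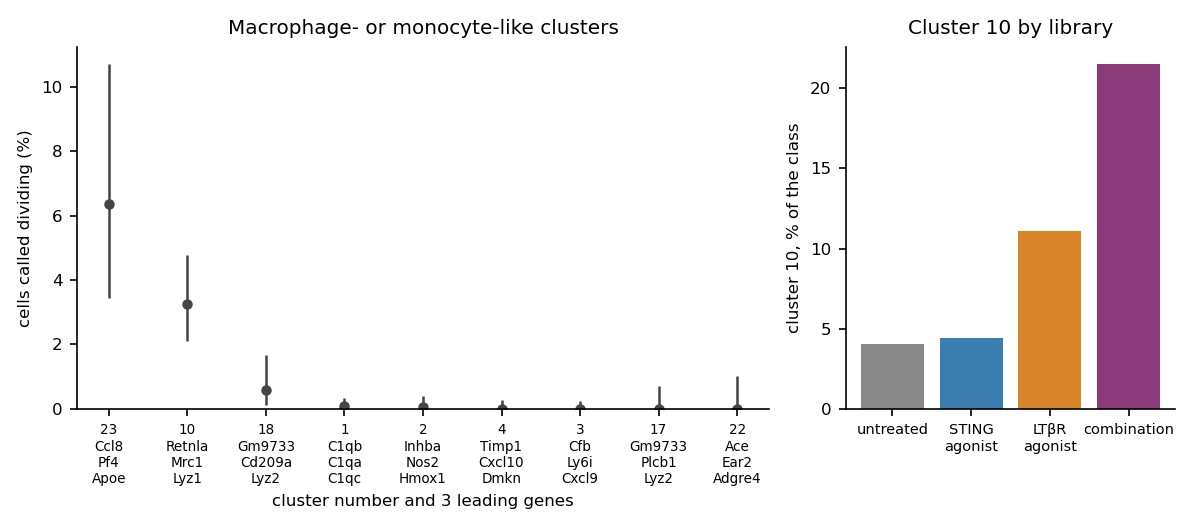
Left, percent of cells called dividing (y axis) in each macrophage- or monocyte-like cluster (x axis, cluster number with 3 leading genes), with points for the share over all libraries and lines for the exact binomial 95% interval. Right, cells of cluster 10 as a percent of the class (y axis) by library (x axis): clusters 23 and 10 stand at 6.37% and 3.26%, and cluster 10 makes up 4.06% of the class in untreated and 21.5% in the combination.

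Members' sums in macrophages were 512.9, 553.7, 624.6 and 681.8 CPM, with log2 ratios of 0.11 (0.06 to 0.16), 0.28 (0.24 to 0.33) and 0.41 (0.36 to 0.46) for ADU-S100, anti-LTβR and combination. The mitotic roles differed most. The cyclin and destruction genes were at 6.25, 8.76, 14.9 and 19.9 CPM, log2 ratios of 0.49 (0.02 to 0.95), 1.25 (0.89 to 1.62) and 1.67 (1.29 to 2.05). The kinetochore and spindle genes were at 9.77, 11, 18.4 and 23.6 CPM. In each library 10 cells supplied 44.8%, 63.4%, 38.1% and 54.1% of the cyclin and destruction UMIs. For the kinetochore and spindle genes they supplied 29.0%, 56.2%, 37.0% and 42.8%. The Poisson intervals of these roles, which treat UMIs as independent, are therefore too narrow. Without clusters 10 and 23 the log2 ratio of the sum was 0.22 for anti-LTβR and 0.26 for the combination.

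Only 7 members reached the minimum level in macrophages, none of them from the mitotic roles. With the combination 1 of 7 was past the limit upward (all genes 2.75%), and 0 of 7 were with anti-LTβR (1.89%) or ADU-S100 (0.434%). None was past it downward, where all genes were at 2.21%, 1.17% and 0.136%. The 1 member was Stmn1, which reaches the minimum level only through the combination, and 0 of the 6 members that reach it without that library were past the limit. Stmn1 was at 6.07, 7.45, 10.5 and 17.9 CPM, increasing in the order untreated, ADU-S100, anti-LTβR, combination, with a log2 ratio of 0.80 (0.60 to 0.99) in the combination. Tubb5 was at 175.9, 212.6, 202.5 and 217.6 CPM, with every treated library above untreated. Hmgb2 was at 164.9, 153.2, 192.4 and 203.1 CPM.

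Pcna was at 48.3, 46.7, 60.6 and 59.4 CPM, higher in both libraries with anti-LTβR. The other compared replication genes differed little, with Mcm4 at 30, 35.8, 33.4 and 35.6, Mcm3 at 11.6, 11.6, 13.5 and 11.2 and Rrm1 at 10.6, 12.2, 9.96 and 11.4 CPM. Below the minimum level, Top2a was at 3.45, 3.40, 7.13 and 8.15 CPM, Ube2c at 1.80, 2.22, 5.50 and 5.74 CPM and Pclaf at 1.01, 1.63, 3.47 and 5.02 CPM, each higher in both libraries with anti-LTβR. Mcm5 had the same split, at 2.84, 3.33, 5.42 and 4.17 CPM, while Tk1 was highest in the combination at 3.12, 3.99, 3.91 and 6.97 CPM. Mki67, also highest in the combination, was at 8.37, 9.28, 9.56 and 11.7 CPM.

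Dendritic-like cells, the antigen-presenting cells that start T cell responses, had dividing shares of 0.980% (6 of 612), 1.01% (2 of 199), 2.26% (9 of 399) and 2.75% (6 of 218). The ratio to untreated was 2.30 (0.489 to 11.8) for anti-LTβR and 2.81 (0.479 to 16.3) for the combination, so neither was separable from 1. Both shares were above untreated in 20 of 20 thinnings of the same cells, which leave this counting error unchanged. Of the 23 dividing cells, 19 were in cluster 8, led by Plet1 and Cd209a, and 4 in cluster 19, led by Fscn1 and Ccr7, genes of mature dendritic cells. In cluster 19 these were 1 with anti-LTβR and 3 with the combination.

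Members' sums were 745.6, 717.7, 870.5 and 1009.9 CPM, with log2 ratios of -0.06 (-0.16 to 0.05), 0.22 (0.14 to 0.31) and 0.44 (0.34 to 0.53). The combination was highest for the mitotic roles, and the ADU-S100 library lowest. The cyclin and destruction genes were at 27.4, 6.38, 25.9 and 44.8 CPM, log2 ratios of -2.10 (-3.11 to -1.20), -0.08 (-0.56 to 0.39) and 0.71 (0.24 to 1.18), resting on 201, 16, 116 and 117 UMIs, of which 10 cells supplied 93.5%, 93.8%, 66.4% and 90.6%. The replication genes were at 183.5, 204.0, 248.4 and 237.4 CPM, with both libraries given anti-LTβR above untreated, at 0.44 (0.27 to 0.60) and 0.37 (0.18 to 0.56).

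Of 11 members compared in dendritic-like cells, 2 were past the limit upward with anti-LTβR (all genes 1.50%), 2 with the combination (2.56%) and 0 with ADU-S100 (1.87%), and none was past it downward (all genes 1.16%, 2.96% and 1.03%). Stmn1 was at 9.13, 8.77, 22.3 and 35.2 CPM, with log2 ratios of 0.76 (0.38 to 1.12) for anti-LTβR and 1.24 (0.83 to 1.64) for the combination. Mcm3 was at 13.9, 21.5, 28.5 and 22.6 CPM (0.40, 0.69 and 0.45). Both genes were highest in a library with anti-LTβR.

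Top2a was at 11.9, 7.97, 16.9 and 21.8 CPM, lowest with ADU-S100 and past the limit in the combination (0.54, 0.11 to 0.97). Pcna was at 42.9, 41.4, 51.1 and 63.6 CPM and Tubb5 at 282.3, 321.2, 298.2 and 377.2 CPM, both highest in the combination. Some genes went the other way: Mcm4 was at 52.6, 47.4, 56.4 and 42.1 CPM, lowest in the combination, and Rrm1 was at 15.7, 23.9, 16.5 and 13.8 CPM, highest with ADU-S100. Hmgb2 was at 166.8, 125.9, 179.1 and 187.3 CPM. Tk1 was at 10.9, 11.2, 10.7 and 14.2 CPM and Mki67 at 19.1, 20.3, 22.5 and 24.9 CPM, with small spreads.

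Other genes of the pathway were compared in the same way. Of 74 further proliferation genes, 41 were compared in T-like cells, and 38 lay above 0 with anti-LTβR (median 0.24), 33 with the combination (0.15) and 19 with ADU-S100 (-0.02), against medians of 0.01, -0.03 and 0.02 over all genes. Past the limit upward were Smc2, Prim1, Uhrf1 and Lig1 with anti-LTβR (all genes 1.59%) and Lig1 with the combination (0.825%). Lig1, the DNA ligase of replication, was at 37.4, 29.2, 64.9 and 60.0 CPM. In NK-like cells 25 of 29 compared lay above 0 with anti-LTβR and with the combination, where 44.0% and 46.9% of all genes did. Smc2, Cdc25b, Prc1 and Cks2 were past the limit with anti-LTβR (all genes 0.882%), and Tuba1b and Cks2 with the combination (1.64%). With ADU-S100 20 of 29 lay above 0, against 58.4% of all genes. Cks2, Hells and Pttg1 were past the limit there (all genes 4.92%). Cks2, a cyclin kinase subunit, was at 17.7, 30.3, 50.9 and 43.7 CPM, with log2 ratios of 0.54, 1.14 and 0.96. In macrophages 10 of 19 lay above 0 with anti-LTβR and 11 of 19 with the combination, near an even split. Lmnb1, a lamin, was lower there with the combination, at 339.8 CPM in untreated and 298.1, 248.9 and 230.8 in the treated libraries. In dendritic-like cells 20 of 25 lay above 0 with anti-LTβR and 15 of 25 with the combination and with ADU-S100. Past the limit upward were Dut with anti-LTβR (all genes 1.50%) and Cks1b, Uhrf1, Dut and Smc2 with the combination (2.56%).

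The G1 cyclins and kinases, which act before DNA synthesis, numbered 6. Ccnd3, cyclin D3, was the clearest: in macrophages it was at 89.2, 113.3, 163.5 and 212.7 CPM, log2 ratios of 0.31, 0.81 and 1.17. Cdk6, its kinase partner, was lower in T-like cells with ADU-S100, at 224.5 CPM against 341.3 in untreated (-0.58), and higher in dendritic-like cells with anti-LTβR, at 66.5 against 29.7 CPM (0.95). Myc was past the limit in NK-like cells with ADU-S100, at 111.0 against 71.1 CPM (0.58). The other compared genes of this list stayed within the limit in these 4 classes.

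Of the 12 inhibitors and pocket proteins, which hold cells out of the cycle, few were past the limit. In T-like cells Btg2 was at 333.6, 510.6, 307.3 and 403.5 CPM, higher with ADU-S100 (0.60), and Rbl2, a pocket protein, was at 251.1, 186.8, 229.6 and 155.2 CPM, lower in the combination (-0.66). In dendritic-like cells 0 of 8 compared inhibitors lay above 0 with anti-LTβR or the combination, with medians of -0.30 and -0.20. Cdkn2d, an inhibitor of the G1 kinases, was at 71.7, 88.9, 52.9 and 37.5 CPM there (-0.78 in the combination).

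Dividing cells were also compared with the other cells of their class and library, on genes that the call did not use. Dividing T-like cells held more UMIs, with medians of 10371 to 12760.5 against 4241.5 to 5145. The T-like comparisons pool all subsets. CD8 cells were 38 of the 47, 26 of the 32, 63 of the 85 and 50 of the 72 dividing cells. The part of subset makeup in the T-like gene differences given here was not tested. All 7 genes of resting and memory T cells were lower in dividing cells in 4 of 4 libraries. Tcf7, a factor of naive and memory T cells, was at 1.80 CPM in dividing and 60.7 in other untreated cells, 11 and 82.0 with ADU-S100, 7.53 and 76.5 with anti-LTβR and 25.2 and 92.0 with the combination. Il7r, the IL-7 receptor, was lower likewise, at 133.5 and 351.2 CPM in untreated and 111.8 and 433.5 with anti-LTβR.

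Effector genes were mixed. Of the 8 on the list, Gzmf, Gzmc and Fasl were lower in dividing cells in 4 of 4 libraries, Gzmb and Prf1 in 3 of 4, and Gzma and Ifng in 2 of 4. Gzmk, a granzyme, was higher in the untreated, ADU-S100 and anti-LTβR libraries, at 147.9 against 89.4 CPM in untreated and 143.0 against 70.4 with anti-LTβR, and stood at 79.9 CPM in both kinds of cells with the combination. Over the whole list dividing cells were higher with anti-LTβR (0.12 on the log2 scale) and lower in the other libraries (-0.33, -0.41 and -0.92 in untreated, ADU-S100 and combination). Gzmf, another granzyme, was at 45.1 and 281.0 CPM in dividing and other untreated cells, 415.5 and 548.1 with ADU-S100, 25.8 and 128.4 with anti-LTβR and 62.4 and 239.7 with the combination. Of the 6 exhaustion genes Pdcd1 and Tigit, and of the 4 regulatory genes Foxp3 and Ctla4, were lower in 4 of 4 libraries, while Tox was higher in 3. Pdcd1, the checkpoint receptor PD-1, differed by -0.06 to -0.20 on the log2 scale. Gzma split the libraries, at 289.2 against 131.1 CPM with anti-LTβR and 25.2 against 212.6 with the combination.

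The summed resident list was higher in the dividing macrophages of each library, and so was C1qa, a complement gene. C1qa was at 2935.3 CPM in dividing and 1028.5 in other untreated cells, 3411.2 and 1233.1 with ADU-S100, 2256.8 and 663.1 with anti-LTβR and 2910.1 and 915.2 with the combination. Mrc1, the mannose receptor, was at 171.7 and 93.8, 487.3 and 74.1, 557.6 and 103.6, and 727.5 and 161.1 CPM in the same order. Apoe, Pf4 and Folr2 were higher in 4 of 4 libraries as well. Retnla, which leads cluster 10, was at 0 in dividing and 18.4 CPM in other untreated cells, was higher in dividing cells with ADU-S100 and anti-LTβR, and was at 435.1 and 416.1 CPM with the combination. Lyve1 was lower in 2 libraries and higher in 1. The monocyte gene Ly6c2 was at 0, 0, 149.3 and 14.3 CPM in dividing cells against 893.3 to 1208.2 in the others, and Inhba, Nos2, Cxcl10 and Spp1 were lower in 4 of 4. Other genes of the same lists were split. Cxcl9 and Trem2 were each higher in 2 libraries and lower in 2. Arg1 and the monocyte gene Ccr2 were lower in 3 and higher in the combination, at 1961.5 against 1361.2 and 428.0 against 395.9 CPM. These levels rest on 6, 3, 21 and 14 dividing cells, most of them in clusters 10 and 23.

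Values for dividing dendritic-like cells rest on 6, 2, 9 and 6 cells. Xcr1, a receptor of the cross-presenting cDC1 subset, was at 285.8 and 82.7 CPM in dividing cells of the untreated and anti-LTβR libraries and at 0 in the ADU-S100 and combination libraries. The maturation gene Fscn1 was at 0 CPM in dividing cells of the untreated and ADU-S100 libraries, 51.7 with anti-LTβR and 678.8 with the combination, where the other cells were at 513.3. Ccr7, the other maturation gene compared, was lower in dividing cells in 4 of 4 libraries, at 678.8 against 1030.1 CPM with the combination.

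The upper limit of 5000 genes removed dividing cells out of proportion. It and the mitochondrial limit left out 28.6%, 29.7%, 27.2% and 20.1% of the barcodes that met the dividing call, against 5.67%, 5.23%, 8.65% and 9.13% of all barcodes. With clusters formed without that limit, 12 of 14, 10 of 14, 20 of 24 and 13 of 19 T-like barcodes over it were dividing. Without the limit the summed T-like log2 ratio for anti-LTβR was 0.61 in place of 0.44. Unnamed clusters held 11, 4, 15 and 15 dividing cells, a share of 1.29%, 0.920%, 1.70% and 2.48% of their cells. Of these, 21 were in cluster 13, led by Hist1h1b, Hist1h2ae and Stmn1, where 73.4% of cells carried markers of more than 1 class.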

How the data were processed

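Single-cell libraries were made with the 10x 5′ kit. The authors aligned reads to mm10 with Cell Ranger 7.1.0 and deposited UMI counts (not normalized) of all libraries in 1 matrix, where the barcode suffix names the library per the labels. The matrix held 192887078 UMIs in 24839 barcodes, and 0 columns of other samples were left out. Cells with 300 to 5000 genes and at most 6% mitochondrial UMIs were kept, as the study did. Depth was 32529174 to 60770280 UMIs per library.

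Counts were scaled to 10000 per cell, and 30 principal components of 2000 variable genes (without 179 cell cycle genes, histones and 633 antigen receptor genes) gave clusters with 20 neighbors and Leiden resolution 1.5 in scanpy 1.11.5. Names needed 3 detected markers. The resolution, a limit of 50% mixed cells, and dropping the type 2 innate lymphoid list and Gzma and Prf1 from the NK list were decided after the clusters were seen. Doublets were scored with Scrublet (none removed in the main values, score limit 0.2 in an alternative), and 0 dividing T-like cells exceeded it.

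Thinning drew 1000 UMIs per cell without replacement. Shares have exact (Clopper-Pearson) binomial and sums exact Poisson 95% intervals, ratios the opposed bounds, and a count of 0 was limited at 3 counts. These cover counting error only. Genes were compared at a mean of at least 10 CPM over the 4 libraries. There was no test across libraries. Summing and ratios were tested on simulated data. The members and gene lists were chosen with earlier results of these data known. Named genes are the 3 members of highest mean CPM per role in T-like cells, Mki67, Top2a and, per class and comparison, the 3 highest and 2 lowest log2 ratios. Other genes were named after their values were seen. The alternatives were class by marker score, other filters, thinning depths, calls, pseudocounts and scalings (edgeR 4.0.16 in R 4.3.3).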

Additional observations from a re-analysis of the deposited data

Results flagged for a closer look

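In CD8 T-like cells ADU-S100 went with a higher dividing share when given alone, 4.95% against 4.35% in untreated, and with a lower one when added to anti-LTβR, 5.56% against 9.40%, a log2 ratio of -0.76. The difference between these effects was not tested, since each group is 1 library, and the first of them is smaller than its counting error (log2 ratio 0.19, -0.86 to 1.21). Without thinning the combination was level with anti-LTβR, at 34.5% against 34.6%, and ADU-S100 alone was at 34.7% against 27.6% in untreated.

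Barcodes with more than 5000 detected genes, which the study's filter leaves out, were dividing at 12.3% in the untreated, 20.7% in ADU-S100, 21.9% in anti-LTβR and 20.9% in the combination library, far above the kept neutrophils. Of these barcodes 44.3%, 20.7%, 42.3% and 34.9% carried markers of more than 1 class, and the part of doublets in the shares was not tested.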

How the results depend on the processing

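Of 159 alternative dividing shares between libraries, all stayed within the counting interval of the reported value, and the T-like log2 ratio of anti-LTβR to untreated (0.76) ran from 0.09, without thinning, to 0.84 over 12 alternatives, all above 0. The reported interval is wide, so this says little about stability. Without thinning the macrophage-to-T-like log2 ratio was -1.32 in place of -3.01. Of 107 alternative summed levels 79 stayed within the interval, and of 143 alternative counts of members past the limit in either direction 90 stayed within 1.5 times. The others follow, in the order of classes T-like, NK-like, macrophage, dendritic-like and B- and plasma-like. The share of all genes past the limit is not given beside these counts. They therefore do not separate the members from a wider spread of all genes. No paired analysis was possible because each group is 1 library. No replicate could be left out for the same reason, and the cause of these changes was not tested.

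With no upper limit on detected genes, the summed log2 ratios were 0.11 (ADU-S100) and 0.61 (anti-LTβR) in T-like cells, 0.26 (anti-LTβR) and 0.06 (combination) in NK-like cells, 0.18, 0.40 and 0.57 in macrophages, 0.13, -0.09 and 0.24 in dendritic-like cells (a reversal for anti-LTβR) and 0.26 in B- and plasma-like cells. Members past 0.5 numbered 16 in T-like cells (anti-LTβR), 0 in NK-like cells (combination), 1 and 2 in macrophages (anti-LTβR, combination), 5 and 1 in dendritic-like cells (ADU-S100, anti-LTβR, the latter with direction reversed) and 8 in B- and plasma-like cells.

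With classes by marker score, sums were 0.35 in T-like and 0.13 in NK-like cells for anti-LTβR and -0.01 in NK-like cells for the combination, a reversal, and member counts were 1 (T-like, anti-LTβR), 3, reversed in direction, 2 and 0 (NK-like, each treatment in turn), 2 (dendritic-like, ADU-S100) and 3 (B- and plasma-like). As a mean over cells, sums were 0.10 and 0.37 in T-like cells (ADU-S100, anti-LTβR) and 0.41 in NK-like cells (combination), and counts 2 (T-like, anti-LTβR), 6 (NK-like, ADU-S100) and 3 (B- and plasma-like). With TMM factors the combination sums were 0.36 in T-like cells and 0.34 in macrophages, with 4 members in NK-like cells. Centering on all genes gave 2, reversed in direction, and 4 in NK-like cells (ADU-S100, combination). Without Stmn1, Hmgb2, Tubb5 and Pcna, added after seeing the data, sums were -0.03 and 0.25 in T-like cells (ADU-S100, combination), 0.61 in NK-like cells (anti-LTβR), 0.18, 0.43 and 0.64 in macrophages and 0.39 in dendritic-like cells (anti-LTβR). Without clusters 10 and 23, also added later, macrophage sums were 0.22 (anti-LTβR) and 0.26 (combination).

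With a pseudocount of 1, counts were 1, 11 and 3 in T-like cells, 4 and 4 in NK-like cells (ADU-S100, combination), 1 in macrophages (anti-LTβR), 3 and 4 in dendritic-like cells (ADU-S100, combination) and 11 in B- and plasma-like cells. With 50 they were 2 in T-like cells (anti-LTβR), 0, 1 and 0 in NK-like cells, 0 in macrophages (combination), 0 and 1 in dendritic-like cells (anti-LTβR, combination) and 2 in B- and plasma-like cells. Past 1 in place of 0.5 were 0 in T-like cells (anti-LTβR), 0, 1 and 0 in NK-like cells, 0 in macrophages (combination), 0 and 1 in dendritic-like cells (anti-LTβR, combination) and 3 in B- and plasma-like cells. At a minimum of 1 CPM counts were 2 and 11 in NK-like cells (ADU-S100, anti-LTβR), 2, 6 and 9 in dendritic-like cells and 13 in B- and plasma-like cells. With cell cycle genes kept in the clustering there were 2 in NK-like cells (ADU-S100), and without cells of a Scrublet score over 0.2 there were 2 in NK-like and 1 in dendritic-like cells (ADU-S100).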
